A study of Mus musculus with 8 samples.

Results

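Glutamate and GABA are the main excitatory and inhibitory transmitters of somatosensory circuits, and 7 genes that set whether a neuron releases them were followed here: the vesicular glutamate transporters Slc17a6, Slc17a7 and Slc17a8, the glutaminase Gls2, and the GABAergic genes Slc32a1, Gad1 and Gad2. They were taken by symbol from a list of transmitter genes. All 7 were among the 55414 genes listed in the count files, and all 7 were among the 17721 genes with enough reads to be tested.

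RNA-seq was performed on dorsal root ganglia (DRG) dissected from E18.5 mouse embryos, with 4 libraries per genotype and 8 in all. AD1 OE embryos were AdvillinCre/+;Rosa26Dach1/+, and Control embryos were Advillin+/+;Rosa26Dach1/+, so every embryo carried the Rosa26Dach1 allele and Cre alone released Dach1 expression in AD1 OE. Cre was expressed from the Advillin gene, which is active in somatosensory neurons, and DRG also hold Schwann and satellite glia that lack this driver. The Rosa26Dach1 line was of mixed C57Bl/6J and CD1 background. Replicates were counted as embryos in the study, and pooling of embryos is not mentioned.

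DRG neurons release glutamate, which VGLUT proteins load into synaptic vesicles: VGLUT2 (Slc17a6) in most sensory neurons, VGLUT1 (Slc17a7) mainly in large-diameter mechanosensory and proprioceptive neurons, and VGLUT3 (Slc17a8) in C-low threshold mechanoreceptors (C-LTMRs). Glutaminases make glutamate from glutamine. GABA is made by GAD67 (Gad1) and GAD65 (Gad2) and is loaded into vesicles by VGAT (Slc32a1), which also carries glycine, and these are hallmark genes of inhibitory neurons in the adjacent spinal cord.

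Before the members, the labels and libraries were checked. Dach1 rose in AD1 OE from 32.6 ± 1.64 to 95.9 ± 5.28 CPM (reads as a share of the TMM-scaled library; mean ± SD, n = 4), with no overlap between genotypes. Avil, which the Cre allele replaces on one chromosome, fell from 891.8 ± 35.1 to 463.6 ± 12.0 CPM (log2 fold change -0.94, SE 0.04, edgeR quasi-likelihood test, adjusted p = 1.98e-07). Libraries held 22339059 to 44025625 counts. By Xist and Y-linked genes, 3 AD1 OE libraries and 1 Control library were male and 1 AD1 OE and 3 Control libraries were female. Of 8 pan-sensory neuron markers, 1 (Avil) was called, that is, had an adjusted p under 0.005 with an absolute log2 fold change over 0.25, and of 7 Schwann and satellite glia markers, 0 were called (edgeR), with median log2 fold changes of -0.02 and 0.00. Over all tested genes, 2.57% were called, and 18.6% had an unadjusted p under 0.05 (10.3% lower in AD1 OE, edgeR). At that p, 2 of each list were lower and 0 were higher. Beside Avil these were, named after their values were seen, the synaptic gene Snap25 (log2 fold change -0.15, edgeR adjusted p = 0.181) and the glial genes Fabp7 (-0.26, edgeR adjusted p = 0.101, all AD1 OE libraries below all Control libraries) and S100b (-0.14, edgeR adjusted p = 0.131). Among the most abundant neuronal markers, Prph measured 2062 ± 182.5 against 2098 ± 100.3 CPM in AD1 OE and Control, and Tubb3 had a log2 fold change of -0.12 (SE 0.06, edgeR adjusted p = 0.298).

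None of the 7 genes was called in AD1 OE against Control at these thresholds (edgeR), against 2.57% of the 17721 genes tested. DESeq2 and limma-voom called 0 of 7 as well. An unadjusted p under 0.05 was found for 4 of 7 with edgeR and with DESeq2 and for 2 of 7 with limma-voom. All of these were lower in AD1 OE. Over all tested genes, the share with such a p in either direction was 18.6% with edgeR, 8.95% with DESeq2 and 18.6% with limma-voom. In the lower direction it was 10.3% with edgeR. The 4 members were Slc17a6, Slc17a7, Slc32a1 and Gad2. For each of the 7 the values of the 2 genotypes overlapped, whereas 13.0% of all tested genes had non-overlapping groups.

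How alike the members of each family are in sequence is shown first, since similar genes can share reads. Over the aligned coding sequence Slc17a6 shared 72.7% of its bases with Slc17a7 and 71.6% with Slc17a8, Slc17a7 shared 72.0% with Slc17a8, and Gad1 shared 67.4% with Gad2. The longest identical runs are in capitals below, from GENCODE M21 transcripts on GRCm38, each 5′ to 3′ with a few neighbouring bases. They spanned 21 bases for Slc17a6 with Slc17a7, 25 bases for Slc17a6 with Slc17a8, 17 bases for Slc17a7 with Slc17a8 and 17 bases for Gad1 with Gad2, in coding sequences of 1746 to 1803 bases.
Slc17a6, coding bases 264 to 292: ctgtAACCTGGGCGTGGCCATCGTGgaca
Slc17a7, coding bases 240 to 268: ctgcAACCTGGGCGTGGCCATCGTGtcca
Slc17a6, coding bases 222 to 250: caTCATGAGCGGCCTCGGCTTCTGCATat
Slc17a8, coding bases 276 to 304: tgTCATGAGCGGCCTCGGCTTCTGCATtt
Slc17a7, coding bases 706 to 734: ttttgcGGTTCCTATGCTGGGGCggtggt
Slc17a8, coding bases 709 to 737: ttctgtGGTTCCTATGCTGGGGCagttgt
Gad1, coding bases 1198 to 1226: tggaacCCTCACAAGATGATGGGcgtgct
Gad2, coding bases 1174 to 1202: tggaatCCTCACAAGATGATGGGtgtccc

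Per kilobase of exon, Slc17a6 stood far above the other members. In Control it measured 77.0 ± 2.64 CPM per kb (mean ± SD, n = 4), followed by Slc17a7 at 7.69 ± 0.709, Gls2 at 2.40 ± 0.190 and Slc17a8 at 0.994 ± 0.166 CPM per kb. These first 4 levels were separated by more than their spread. The GABAergic genes came last, with Slc32a1 at 0.537 ± 0.386, Gad1 at 0.375 ± 0.130 and Gad2 at 0.178 ± 0.129 CPM per kb, and neighbours among these last 3 did not differ beyond their spread. In AD1 OE the order was the same for the first 4 (71.8 ± 2.84, 6.97 ± 0.0833, 2.71 ± 0.377 and 0.905 ± 0.205 CPM per kb), but Gad1 at 0.367 ± 0.0728 stood above Slc32a1 at 0.229 ± 0.158, with Gad2 at 0.0660 ± 0.0332 CPM per kb. Control libraries 2 and 3 also had Gad1 above Slc32a1 (49.76 against 42.01% and 47.16 against 36.49% of the summed GABAergic level). AD1 OE library 3 was nearly level (44.98 against 44.44%), and Control libraries 1 and 4 had Slc32a1 above Gad1. Of the summed per-kilobase level of the 3 VGLUT genes, Slc17a6 made up 90.1% ± 0.672 in AD1 OE and 89.9% ± 0.752 in Control, Slc17a7 8.77% ± 0.397 and 8.97% ± 0.696, and Slc17a8 1.14% ± 0.296 and 1.16% ± 0.167. The make-up of the VGLUT transcripts therefore differed between genotypes by less than the spread between libraries.

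**Figure D1:**
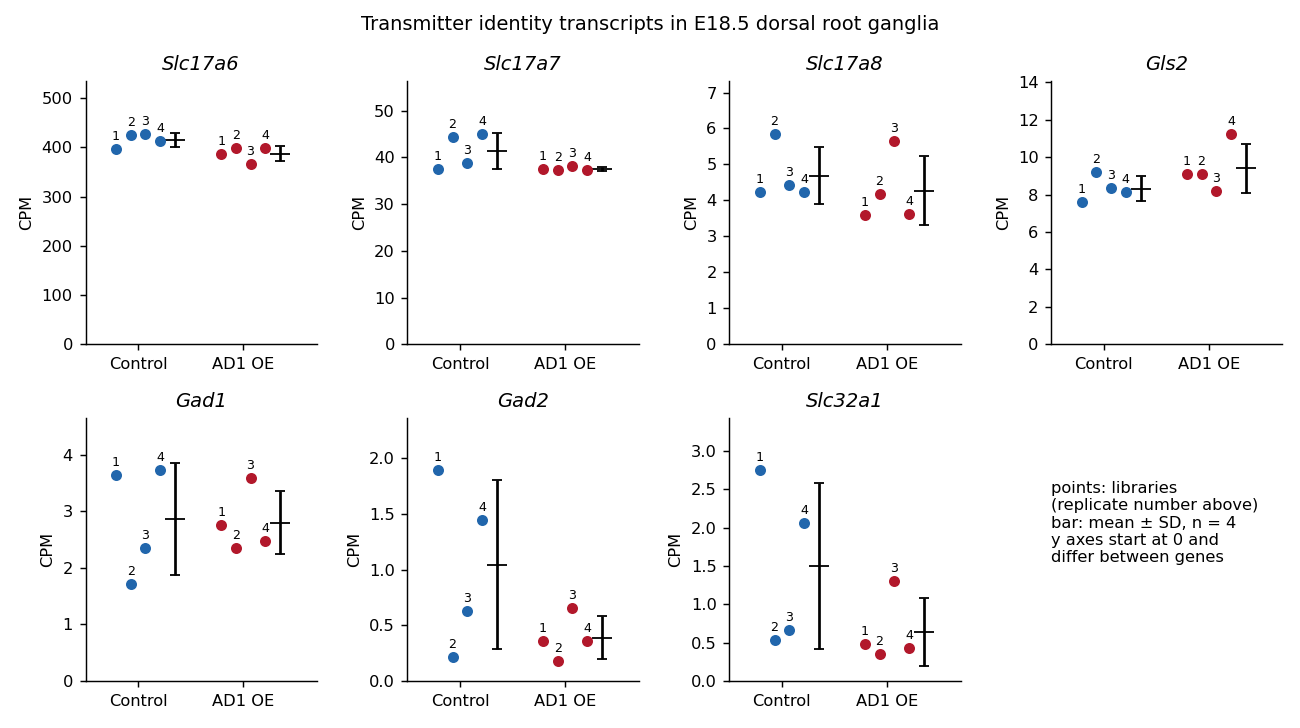
CPM (vertical axes from 0, different for each gene) of the 7 genes by genotype, with 1 point per library, its replicate number above it, and a bar for the mean ± SD of 4. Genotypes overlap in every panel, and for Gad2 and Slc32a1 Control libraries 1 and 4 are the highest.

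Slc17a6, which encodes the VGLUT2 of most sensory neurons, measured 386.3, 399.0, 366.1 and 398.2 CPM in AD1 OE libraries 1 to 4 and 396.8, 425.5, 427.8 and 412.6 CPM in Control libraries 1 to 4. AD1 OE library 3 was lowest and Control libraries 2 and 3 were highest, and the groups overlapped only through Control library 1, which lay below AD1 OE libraries 2 and 4. The fitted level in AD1 OE was 93.2% of Control (log2 fold change -0.10, SE 0.04, 95% interval -0.20 to -0.01, edgeR adjusted p = 0.240). This difference was no larger than that of Snap25 (-0.15) or Tubb3 (-0.12). The remaining pan-sensory markers beside Avil were Isl1 at 0.02, Pou4f1 at 0.00, Prph and Elavl3 at -0.02 and Scn9a at 0.10. The part of overall neuronal RNA in the Slc17a6 difference was not tested. In bulk tissue, fewer cells of a type and less RNA per cell cannot be told apart.

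Slc17a7, the VGLUT1 gene, measured 37.53, 37.34, 38.25 and 37.27 CPM in AD1 OE and 37.57, 44.35, 38.79 and 45.10 CPM in Control. The AD1 OE libraries were within 1 CPM of each other, while Control libraries 2 and 4 lay above all the rest and Control library 1 fell among the AD1 OE values. The difference was -0.14 on the log2 scale (SE 0.06, 95% interval -0.28 to -0.01, edgeR adjusted p = 0.236). Of 7 other genes that mark large-diameter neurons, where 2.57% of all tested genes were called, only Etv1, a transcription factor of proprioceptors and mechanoreceptors, was called (1 of 7), and it fell by 0.97 on the log2 scale (92.6 ± 9.20 against 180.9 ± 14.1 CPM, edgeR adjusted p = 6.39e-06). Nefh, a neurofilament gene of myelinated neurons, measured 508.0 ± 17.1 against 600.1 ± 32.9 CPM (log2 fold change -0.24, edgeR adjusted p = 0.0116), and Ntrk3, the receptor of neurotrophin-3, 343.3 ± 31.0 against 278.4 ± 17.0 CPM (log2 fold change 0.30, edgeR adjusted p = 0.0171). Both missed the threshold, although 3 of the 7 genes had non-overlapping groups, against 13.0% of all tested genes. The list's median log2 fold change was -0.07, beside 0.00 for all tested genes.

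Slc17a8, the VGLUT3 gene of C-LTMRs, measured 3.595, 4.188, 5.661 and 3.634 CPM in AD1 OE and 4.230, 5.856, 4.441 and 4.236 CPM in Control. One library of each genotype, AD1 OE 3 and Control 2, stood above the other 6, which lay between 3.595 and 4.441 CPM. The log2 fold change was -0.15 with an interval wide enough to hold changes in either direction (SE 0.16, 95% interval -0.51 to 0.21, edgeR adjusted p = 0.691). AD1 OE library 3 was the only female of its genotype, and within females its value exceeded the Control mean of 4.842 CPM, whereas the 3 AD1 OE males averaged 3.806 against 4.236 CPM in the Control male. C-LTMR genes outside the vesicular transporters were called in both directions. Th, the tyrosine hydroxylase that marks C-LTMRs, rose from 21.2 ± 2.90 to 63.8 ± 3.45 CPM (log2 fold change 1.60, edgeR adjusted p = 6.09e-07). Tafa4, a secreted protein of these neurons, and Gfra2, the neurturin receptor, fell by 0.38 and 0.58 on the log2 scale (edgeR adjusted p = 0.000628 and 0.000230). In all, 2 of 5 C-LTMR genes fell and 1 rose, where 1.78% of all tested genes fell and 0.784% rose, with a median log2 fold change of -0.23.

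Gls2 was the only member with a higher mean in AD1 OE. It measured 9.088, 9.089, 8.186 and 11.26 CPM in AD1 OE and 7.605, 9.188, 8.371 and 8.134 CPM in Control. AD1 OE library 4 stood above all others, whereas the other 3 AD1 OE libraries lay within the Control range. The log2 fold change was 0.17 (SE 0.10, 95% interval -0.05 to 0.40, edgeR adjusted p = 0.405). Gls2 lies on chromosome 10, as does Avil, with 51 protein-coding genes between them in the GRCm38 annotation, and a difference owed to the linked Advillin allele and one owed to Dach1 cannot be told apart. The member Slc17a8 also lies on chromosome 10, with 177 protein-coding genes between it and Avil. So do the glutamate transporter gene Slc1a6 and the glial genes Fabp7, S100b and Erbb3, for which the genes between them and Avil were not counted. Slc1a6, Fabp7 and S100b had lower means in AD1 OE, whereas Erbb3 had a higher one (log2 fold change 0.09, edgeR adjusted p = 0.526). The part of linkage in their values was not tested.

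**Figure D2:**
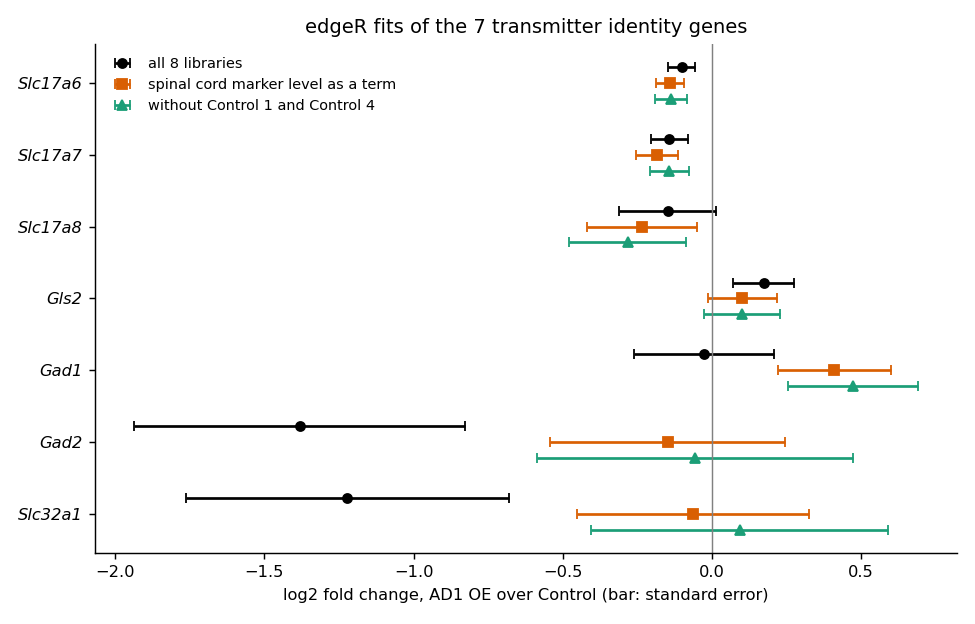
Fitted log2 fold changes of the 7 genes, AD1 OE over Control (horizontal axis, bars are standard errors, edgeR), from all 8 libraries, with spinal cord marker level as a term, and without Control libraries 1 and 4. In these last fits Slc32a1 lies at -0.06 and 0.09, Gad2 at -0.15 and -0.06 and Gad1 at 0.41 and 0.47, whereas Slc17a6 lies at -0.14 in both.

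Slc32a1, the vesicular GABA and glycine transporter, rested on few reads. It measured 0.475, 0.356, 1.30 and 0.432 CPM in AD1 OE (21, 8, 34 and 12 counts) and 2.75, 0.530, 0.668 and 2.06 CPM in Control (61, 17, 17 and 73 counts). Control libraries 1 and 4 were highest, and Control libraries 2 and 3 lay below AD1 OE library 3 and above the other AD1 OE libraries. The log2 fold change was -1.22 (SE 0.54, 95% interval -2.40 to -0.04, edgeR adjusted p = 0.25). An antisense gene, Gm14205, overlaps 24.9% of the Slc32a1 exon bases. The library kit was stranded, but the strand setting of the counting is not given in the sources used here, so reads of this overlap are uncertain.

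Gad2, the GAD65 gene, rested on still fewer reads. It measured 0.362, 0.178, 0.650 and 0.36 CPM in AD1 OE (16, 4, 17 and 10 counts) and 1.89, 0.218, 0.629 and 1.44 CPM in Control (42, 7, 16 and 51 counts). Control libraries 1 and 4 again lay above all others, while Control libraries 2 and 3 lay within the AD1 OE range. The log2 fold change was -1.38 (SE 0.55, 95% interval -2.59 to -0.17, edgeR adjusted p = 0.201).

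Gad1, the GAD67 gene, measured 2.76, 2.36, 3.60 and 2.48 CPM in AD1 OE and 3.65, 1.71, 2.36 and 3.73 CPM in Control. The highest values were in Control libraries 4 and 1 and AD1 OE library 3, and the lowest was in Control library 2. The log2 fold change was -0.03 with an interval from -0.54 to 0.49 (SE 0.23, edgeR adjusted p = 0.973), so changes within that interval were not excluded. As a description, Gad1 made up 58.1% ± 9.13 of the summed per-kilobase level of the 3 GABAergic genes in AD1 OE and 39.2% ± 11.02 in Control. By library the share was 60.95, 66.21, 44.98 and 60.12% in AD1 OE and 26.8, 49.76, 47.16 and 33.19% in Control. It was lowest in Control libraries 1 and 4, while Control libraries 2 and 3 lay above AD1 OE library 3.

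The spinal cord, which lies beside the ganglia, contains GABAergic neurons. To compare its carry-over between libraries, 18 genes of spinal neurons and oligodendrocyte precursors were measured in each library. Their summed level was 7.85, 8.06, 10.5 and 9.75 CPM in AD1 OE and 26.3, 7.60, 10.5 and 16.4 CPM in Control. Control libraries 1 and 4 were the highest, the same libraries as for Slc32a1, Gad2 and, with AD1 OE library 3 in the third place, Gad1. The means were 9.05 ± 1.30 and 15.2 ± 8.25 CPM, a difference of -6.14 that did not pass an exact permutation test (two-sided, p = 0.257, smallest possible 0.0286). The 11 markers outside inhibitory neurons reached 19.1 and 9.38 CPM in Control libraries 1 and 4 and 3.12 to 4.90 CPM in the other 6. The 7 inhibitory markers were more even, with 4.05 to 5.62 CPM in AD1 OE and 4.49 to 7.16 CPM in Control, of which Gbx1 alone gave 3.09 ± 0.525 and 2.63 ± 0.105 CPM.

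Markers at 0 counts numbered 3 or 4 of 18 in the AD1 OE libraries and 1, 5, 6 and 3 of 18 in Control libraries 1 to 4. Among the markers, Olig1, an oligodendrocyte lineage factor, reached 8.37 and 3.78 CPM in Control libraries 1 and 4 and 0.678 to 1.65 CPM in the other libraries. Not every marker had this pattern. Lmx1b measured 0.72 and 1.469 CPM in Control libraries 1 and 4 and was highest in Control library 3 (1.887 CPM). Nkx6-1 measured 3.195 and 1.412 CPM there, beside 1.547 CPM in AD1 OE library 4. Pax8, named after its values were seen, was lowest in Control library 1 (0.225 CPM). Sall3, a transcription factor of inhibitory interneurons, averaged 0.538 ± 0.414 against 1.54 ± 0.454 CPM (log2 fold change -1.53, edgeR adjusted p = 0.0377) and was not called. The glycine transporter Slc6a5, chosen after its values were seen, was highest in Control libraries 1 and 4. It had 18, 11, 41 and 31 counts in AD1 OE and 121, 19, 16 and 102 counts in Control.

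**Figure D3:**
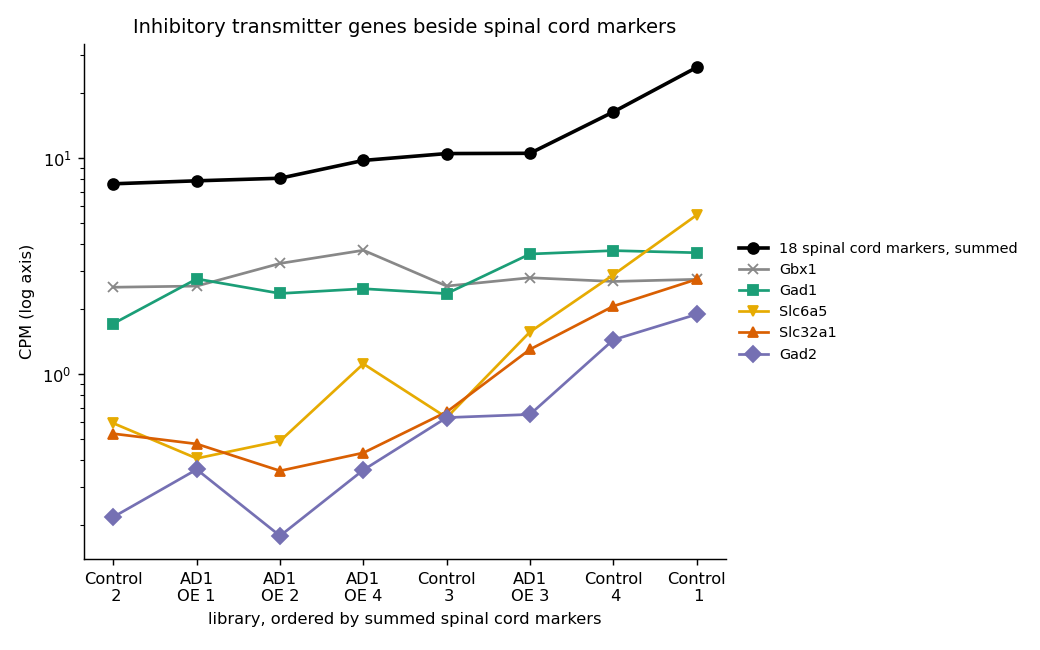
CPM on a log axis (vertical) of 18 summed spinal cord markers, of Gad1, Gad2, Slc32a1 and Slc6a5, and of the spinal marker Gbx1, in the 8 libraries ordered by the marker sum (horizontal). Control libraries 4 and 1, at 16.4 and 26.3 CPM of spinal markers, are also the highest for Gad2, Slc32a1 and Slc6a5, while Gbx1 ranges from 2.52 to 3.74 CPM without following that order.

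The members were also fitted with the spinal marker level and without these libraries. With the spinal marker level of each library as a term, the log2 fold change was -0.06 for Slc32a1 (SE 0.39, edgeR adjusted p = 0.971) and -0.15 for Gad2 (SE 0.39, edgeR adjusted p = 0.925). Without Control libraries 1 and 4, an alternative chosen after the data were seen, it was 0.09 for Slc32a1 and -0.06 for Gad2 (SE 0.50 and 0.53, edgeR adjusted p = 0.969 and 0.985). Since these 2 libraries held the highest Slc32a1 and Gad2 values, leaving them out of Control lowers the Control level by construction, and it does not bear on the cause. The marker term rests on the same 2 libraries, at 26.3 and 16.4 CPM against 7.60 to 10.5 CPM in the others. The 2 fits are therefore not independent, and the marker term does not bear on the cause either. Gad1 then had a positive estimate, 0.41 with the marker term and 0.47 without the 2 libraries (edgeR adjusted p = 0.367 and 0.380). Slc17a6, at -0.14 in both, and Slc17a7, at -0.18 and -0.14, kept the direction they had in all libraries. The part of spinal cord RNA in the remaining reads of Gad1, Gad2 and Slc32a1 was not tested, and the 6 libraries with few spinal markers still held 53 to 122 counts of Gad1.

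Sex was unevenly spread over the genotypes and was compared within each sex, where 1 group is always a single library. In females Slc32a1 measured 1.30 CPM in the AD1 OE library against a Control mean of 1.31 CPM, and in males an AD1 OE mean of 0.421 against 2.06 CPM, the Control male being library 4. Gad1 measured 3.60 and 2.57 CPM in females and 2.53 and 3.73 CPM in males. A genotype by sex term, added after the data were seen, had an unadjusted p of 0.0374 for Slc32a1 and 0.0361 for Gad1, and no member passed after adjustment (edgeR adjusted p = 0.992 for all 7).

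Among 15 further genes of glutamate supply and uptake, 0 were called (edgeR), while 6 were lower and 1 was higher at an unadjusted p under 0.05 (10.3% lower and 18.6% in either direction over all tested genes), and the median log2 fold change was -0.09. One of the 6 lower genes, Slc25a18, a mitochondrial glutamate carrier named after its values were seen, was highest in Control libraries 1 and 4 (5.36 and 3.59 CPM, 0.995 to 1.80 CPM in the others), the libraries highest in spinal markers. The groups did not overlap for 4 of 15 genes, against 13.0% of all tested genes, with 3 lower in AD1 OE and Slc38a2 higher. Among the most abundant, the glutamine transporter Slc38a2 measured 387.4 ± 13.0 against 360.9 ± 17.6 CPM, and glutamine synthetase Glul 202.1 ± 17.2 against 201.9 ± 16.7 CPM in AD1 OE and Control. Of genes chosen after their values were seen, Got1, which interconverts glutamate and aspartate, measured 104.0, 97.9, 98.8 and 103.9 CPM in AD1 OE and 113.2, 115.8, 117.3 and 122.3 CPM in Control. All 4 AD1 OE values lay below all 4 Control values, and the adjusted p of 0.00401 (edgeR) was under the threshold, but the log2 fold change of -0.21 was within the fold limit. The glutamate transporter Slc1a6 was likewise lower in all 4 AD1 OE libraries (7.48 ± 0.431 against 10.1 ± 1.01 CPM, log2 fold change -0.43, edgeR adjusted p = 0.0101).

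Against 2.57% and 18.6% of all tested genes, 0 of 6 genes of GABA uptake and breakdown were called (edgeR) and 1 had an unadjusted p under 0.05. This was Abat, the GABA transaminase, whose AD1 OE libraries at 92.8 ± 6.37 CPM all lay below the Control libraries at 105.6 ± 3.61 CPM (log2 fold change -0.18, edgeR adjusted p = 0.0448). The GABA transporter Slc6a13 measured 148.9 ± 21.0 against 132.2 ± 16.9 CPM.

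Other vesicular and transmitter transporters were checked for expression in either genotype. Of the 6 remaining SLC17 genes, 4 (Slc17a1 to Slc17a4) averaged under 0.05 CPM in both genotypes and were not tested, and the lysosomal sialic acid transporter Slc17a5 was level at 23.3 ± 1.46 against 23.3 ± 1.45 CPM. Of 7 genes for other transmitters 5 were tested and 0 were called, with 0 at an unadjusted p under 0.05 (edgeR), against 2.57% and 18.6% of all tested genes. They included the vesicular monoamine transporter Slc18a2 (17.6 ± 1.75 against 15.6 ± 2.35 CPM) and the choline transporter Slc5a7 (14.97 ± 0.579 against 14.6 ± 1.40 CPM). The cholinergic genes Chat and Slc18a3 averaged under 1 CPM in both genotypes.

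**Figure D4:**
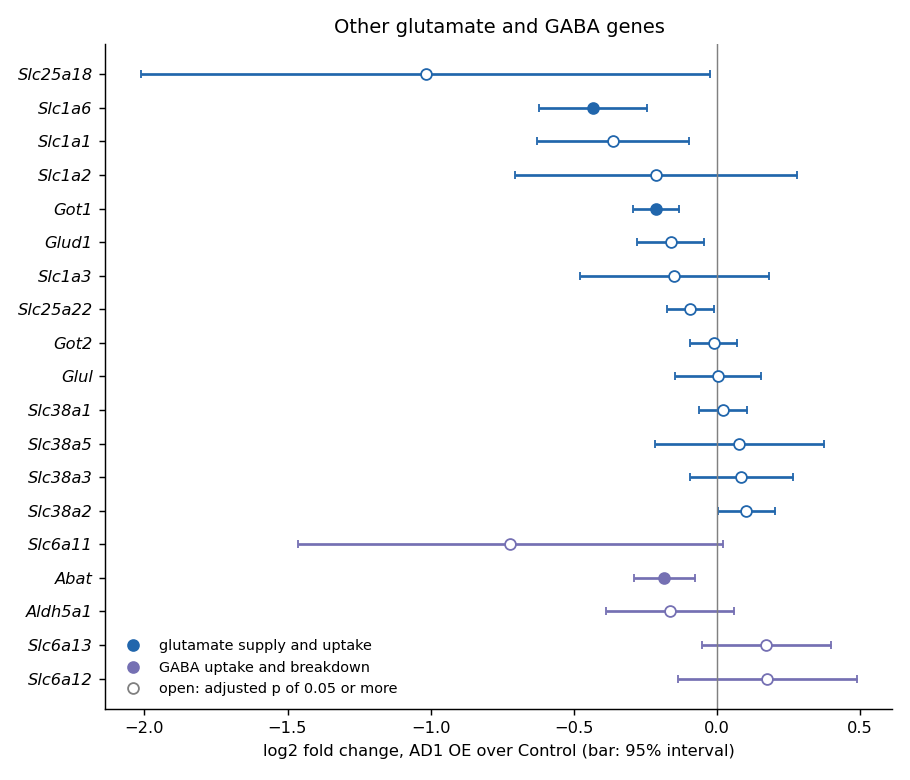
Log2 fold changes of AD1 OE over Control (horizontal axis, bars are 95% intervals, edgeR) for genes of glutamate supply and uptake and of GABA uptake and breakdown, with filled points for an adjusted p under 0.05. The filled points are Slc1a6, Got1 and Abat, all lower in AD1 OE, and most other intervals include 0.

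Across the 8 libraries, the profile of log2 CPM around each member's own mean was compared with those of 13988 genes at a mean of at least 1 CPM, by the root mean square difference. Nearest to Slc17a6 were Cldnd1 and Cpeb2 (0.0176 and 0.0190 on the log2 scale), and to Slc17a7 Dym, Fbxl16 and Mmp25 (0.0394 to 0.0414). Nearest to Slc17a8 were Adprhl1, Adssl1 and Ggt1, to Gls2 Ksr2, Has3 and Elk1, and to Gad1 Dnaaf3, Cfap45 and Timp4. Gad2 was nearest to Slc32a1 itself (0.324), then to Kcnj16 and Rfx4 (0.352 and 0.372). Among the compared genes, these 2 also lay nearest to Slc32a1 (0.372 and 0.442), where Mapk15 was the third. Gad2, at a mean of 0.716 CPM, was below the limit of 1 CPM and could not be listed as a neighbour of Slc32a1.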

How the data were processed

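Libraries were made from total RNA of E18.5 DRG per the labels, with a stranded mRNA kit per the study. The authors aligned reads to GRCm39 with STAR 2.7.8a and obtained counts per Ensembl gene from featureCounts 2.0.1. The deposited files hold raw counts, 1 file per library, not normalized or filtered. Each listed 55414 IDs and 0 lines without a gene; 52081 matched a symbol in GENCODE M21 (GRCm38), which also gave exon lengths, overlaps and coding sequences. No coordinates are given, since the builds differ.

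Counts were analysed with edgeR 4.0.16 in R 4.3.3: filterByExpr, TMM scaling, the quasi-likelihood test on a model of genotype alone, and p-values adjusted by Benjamini and Hochberg across 17721 genes. The thresholds are those of the study, which used DESeq2. Alternatives were DESeq2 1.42.0, limma-voom (limma 3.58.1), other scalings, filters and terms, and omission of libraries. The steps were tested on simulated data. The common biological coefficient of variation was 8.22%, within-group correlations were 0.988 to 0.995, and all replicate pairs differed beyond counting noise. Reads carried no molecular identifiers, so the floor of 3 counts (0.0678 to 0.135 CPM) covers counting error only. The 95% intervals of fold changes come from the edgeR fit and include the spread between libraries.

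The members and gene lists were chosen with earlier results of these data known. Named genes are all members and Dach1, genes called in each list, otherwise at most its 3 most abundant, and the 3 nearest profiles per member without clone-based symbols. Clone-based AC and AL symbols were added to that exclusion after 1 had come up. Single genes that these rules name are not reported here.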

Additional observations from a re-analysis of the deposited data

Results flagged for a closer look

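In 16 groups of 4 libraries (the 7 genes and the summed spinal markers, in each genotype), the gap between the extreme library and its nearest neighbour was divided by the group's range and set against Dixon's 95% critical value. Chance alone passes it in about 1 of 20 groups, and 2 of 16 passed. Slc17a8 in Control library 2 measured 5.856 CPM, where the next Control library had 4.441 CPM (ratio 0.870). Slc32a1 in AD1 OE library 3 measured 1.301 CPM, where the next AD1 OE library had 0.475 CPM (ratio 0.875). That library was the only female of its genotype and held 10.5 CPM of spinal markers, the highest sum in AD1 OE, and the part of either in its Slc32a1 level was not tested.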

How the results depend on the processing

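None of the 7 genes was called under any of the 19 alternatives. Without an expression filter the edgeR adjusted p reached 0.0159 for Gad2 and 0.0215 for Slc32a1. Both genes were too low for the filter of 1 CPM in 4 libraries and have no value there. Slc17a6, Slc17a7, Gls2 and Gad2 kept their direction throughout. The Slc17a8 log2 fold change was 0.0269 with sex as a term, and that of Slc32a1 was 0.0923 without Control libraries 1 and 4. Gad1 was 0.0342 in limma-voom, 0.41 with the spinal marker term, 0.47 without those 2 libraries, 0.04 and 0.03 without AD1 OE replicate 2 or 4, and 0.10 and 0.15 without Control replicate 1 or 4. Leaving out single libraries gave -0.31 to -0.02 for Slc17a8, 0.08 to 0.24 for Gls2, -0.22 to 0.15 for Gad1, -1.76 (without AD1 OE 3) to -0.81 (without Control 1) for Slc32a1 and -1.74 (without Control 2) to -0.99 (without Control 1) for Gad2, and -8.66 to -2.44 CPM for the difference in spinal markers. Over all genes 455 were called, 289 without AD1 OE replicate 1 and up to 420 without other single libraries, 254 without Control libraries 1 and 4, 747 without a filter and 1161 at an adjusted p under 0.05 with no fold limit. The causes of these differences between settings were not tested. Replicate numbers did not pair the samples: correlations of same-numbered libraries ran from -0.11 to 0.41, and 1 of 4 AD1 OE libraries correlated best with its own number. With the replicate block, 348 genes and 0 of 7 members were called. Counts per library were 4 to 51 for Gad2 and 8 to 73 for Slc32a1.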
